A study of Homo sapiens with 18 samples.

Results

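The genes described here are 6 matrix metalloproteinases, MMP1, MMP2, MMP3, MMP10, MMP14 and MMP16, and 3 tissue inhibitors of metalloproteinases, TIMP1, TIMP2 and TIMP3. They were chosen by symbol, as the rows of the deposited expression table that carry these 9 names, out of 56269 genes in the table. Each of the 9 was found on 1 row, and each passed the minimum mean level of 10 normalized counts that 13686 genes passed. Across the 18 libraries 7 of them were measured at 727 to 63395 normalized counts, whereas MMP3 and MMP10 lay close to the minimum.

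The libraries were made from IMR90 cells, a line of human lung fibroblasts, and the study asked how the length of hyaluronan (HA) polymers changes the response of these cells to oxidative stress. Before any exposure, cells received either PBS or 20 µg/ml of HA for 6 h, the HA being purified from medium conditioned by naked mole-rat skin fibroblasts (NSF). The HA was either partly fragmented with hyaluronidase (fNSF-HA) or carried through the same heating with an inactivated enzyme (cNSF-HA), so that both preparations had met the enzyme protein. Each of the 3 pre-incubations was collected at its end, or after a further exposure to 200 µM tert-butyl hydroperoxide (tBHP), an organic peroxide, for 1 h and collection 6 h after the exposure began, which gives 6 groups of 3 libraries. No group was kept for those last 6 h without tBHP, so an effect of tBHP and one of the extra hours after the removal of PBS or HA cannot be told apart. All groups share the cell line and its medium, and the methods of the study describe its replicates as biological.

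MMPs are zinc-dependent endopeptidases that cut the proteins of the extracellular matrix and many proteins of the cell surface, and fibroblasts are among their main sources in connective tissue. They are made as inactive proenzymes, either secreted or held at the plasma membrane, and are blocked by TIMPs, which bind the active site. MMP1 is an interstitial collagenase, MMP3 and MMP10 are stromelysins, MMP2 is a gelatinase, and MMP14 and MMP16 are membrane-type enzymes that can activate the MMP2 proenzyme. TIMP1 inhibits most secreted MMPs, TIMP2 also bridges the MMP2 proenzyme to MMP14, and TIMP3 is held in the matrix and also inhibits ADAM17 and several aggrecanases. CD44, the HA receptor studied in these cells, is a known substrate of MMP14. The values below are of mRNA and say nothing of proenzyme, active enzyme or inhibitor protein.

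Positions are given for 8 of the 9 genes (GRCh38, gene bounds from GENCODE release 29). MMP10, MMP1 and MMP3 are neighbours in the MMP cluster of chromosome 11, all on the minus strand, at chr11:102770503-102780628, chr11:102789920-102798160 and chr11:102835801-102843803. MMP2 lies at chr16:55389700-55506691, MMP14 at chr14:22836557-22849027, TIMP1 at chrX:47582313-47586789, TIMP2 at chr17:78852977-78925387 and TIMP3 at chr22:32801701-32863043. TIMP1 and TIMP3 sit inside introns of SYN1 and SYN3 on the opposite strand and share 0 exon bases with them. MMP1 shares 150 exon bases, or 7.61% of its exon length, with the opposite-strand pseudogene WTAPP1, which averaged 0.874 normalized counts. TIMP2 shares 198 exon bases with CEP295NL, which averaged 11.0 normalized counts, and 367 with the antisense gene AC022966.1. The library kit does not mark strand, so reads from such shared bases cannot be assigned to either gene.

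Promoter sequence was held by the RefSeq table (GRCh38.p14) for 4 of the 9 genes and is shown for all 4, namely MMP14 and TIMP1, higher after tBHP, TIMP3, lower after it, and MMP10, which was near the floor. Each line runs 5′ to 3′ on the strand of the gene and ends at the base before the first annotated start of transcription, at chr11:102780629-102780878 (minus strand) for MMP10, chr14:22836335-22836556 (plus strand) for MMP14, chrX:47582186-47582312 (plus strand) for TIMP1 and chr22:32801455-32801700 (plus strand) for TIMP3. Capitals mark 3 motifs searched on both strands, with no overlaps among the matches: TGANTCA for AP-1, TATAAA for a TATA box, and GGGCGG (or its reverse complement CCGCCC) for a GC box.
MMP10: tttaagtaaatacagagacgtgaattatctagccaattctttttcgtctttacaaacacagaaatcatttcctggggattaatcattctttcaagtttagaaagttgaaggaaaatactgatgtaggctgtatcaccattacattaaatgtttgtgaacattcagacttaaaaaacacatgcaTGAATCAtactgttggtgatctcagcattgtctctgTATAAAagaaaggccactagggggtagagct
MMP14: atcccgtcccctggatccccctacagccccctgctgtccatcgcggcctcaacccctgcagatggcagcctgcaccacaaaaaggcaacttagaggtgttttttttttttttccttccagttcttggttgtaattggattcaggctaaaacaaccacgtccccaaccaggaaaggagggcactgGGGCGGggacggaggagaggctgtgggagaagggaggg
TIMP1: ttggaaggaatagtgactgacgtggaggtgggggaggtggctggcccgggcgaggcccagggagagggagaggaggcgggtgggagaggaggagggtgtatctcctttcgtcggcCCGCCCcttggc
TIMP3: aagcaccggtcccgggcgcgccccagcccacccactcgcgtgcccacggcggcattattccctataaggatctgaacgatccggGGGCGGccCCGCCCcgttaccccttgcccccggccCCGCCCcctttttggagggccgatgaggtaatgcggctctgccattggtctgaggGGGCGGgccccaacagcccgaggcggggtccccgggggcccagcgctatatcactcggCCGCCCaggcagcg
Counted from the RefSeq start, the MMP10 promoter held an AP-1 match at -67 to -61 and a TATA match at -31 to -26. Over all 35116 promoters of 300 bases, 7.71% held the AP-1 letters, 11.5% the TATA letters and 45.0% the GC box. The TIMP3 promoter held 5 GC boxes, the MMP14 promoter 1, and the TIMP1 promoter 2, of which the match at -45 to -40 lies past the first annotated start and is not printed. A match in these windows is a description of the letters and not evidence of a bound factor.

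Depth was even, with 20261103 to 26287660 reads on genes per library. All 10 fibroblast markers were above a mean of 10 normalized counts, and KRT5, SFTPC, SCGB1A1 and CDH5, markers of epithelium and endothelium, were at 0 in every library. The summed fibroblast markers ranged from 594921 to 616446 normalized counts without tBHP and from 458889 to 722451 after it, and 4 of the 10 fell and 1 rose after tBHP in PBS cells, where 26.9% of all tested genes were called lower and 24.2% higher. The smooth muscle sum (4 markers) ranged from 7150 to 7880 and from 5734 to 8040, the endothelial sum (5 markers, mostly TEK) from 1286 to 1459 and from 713 to 1101, the epithelial sum (6 markers, mostly KRT19) from 174 to 198 and from 81.9 to 184, and the haematopoietic sum (6 markers, mostly CSF1R) from 28.4 to 43.0 and from 53.2 to 95.3. The part of these shifts in the results below was not tested, and in bulk libraries fewer cells of a type and less RNA per cell cannot be told apart.

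The libraries collected after tBHP varied more than those without it. The median SD between replicates over all tested genes was 0.0674 on the log2 scale without tBHP and 0.172 after it. Replicates 2 and 3 of fNSF-HA with tBHP stood on opposite sides of their group: replicate 2 was 0.24 below the group mean for MMP14 and 0.32 below it for TIMP1, and 0.49 above it for MMP16 and 0.16 above it for TIMP3, all as log2 differences. Replicate 3 was 0.21 above the group mean for both MMP14 and TIMP1, and 0.43 and 0.13 below it for MMP16 and TIMP3. For these genes, the fNSF-HA values that moved with these libraries are given with and without them.

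Before tBHP, TIMP1 and TIMP3 were the most abundant of the 9 mRNAs, while TIMP2 lay below MMP14 and MMP2. Levels between genes are compared here as normalized counts per kilobase of annotated exon. In PBS cells TIMP1 stood at 18644 ± 543 per kb (SD, n = 3) and TIMP3 at 13562 ± 185, followed by MMP14 at 5075 ± 64.2, MMP2 at 4387 ± 47.3 and TIMP2 at 2565 ± 21.5. MMP1 followed at 1052 ± 83.5 and MMP16 at 131 ± 9.26. MMP10 at 6.57 ± 2.43 and MMP3 at 4.77 ± 0.696 came last, and these 2 do not differ beyond their spread. After tBHP in PBS cells the order was the same, but TIMP3 at 8709 ± 279 and MMP14 at 8318 ± 633 per kb no longer differed beyond their spread.

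**Figure D1:**
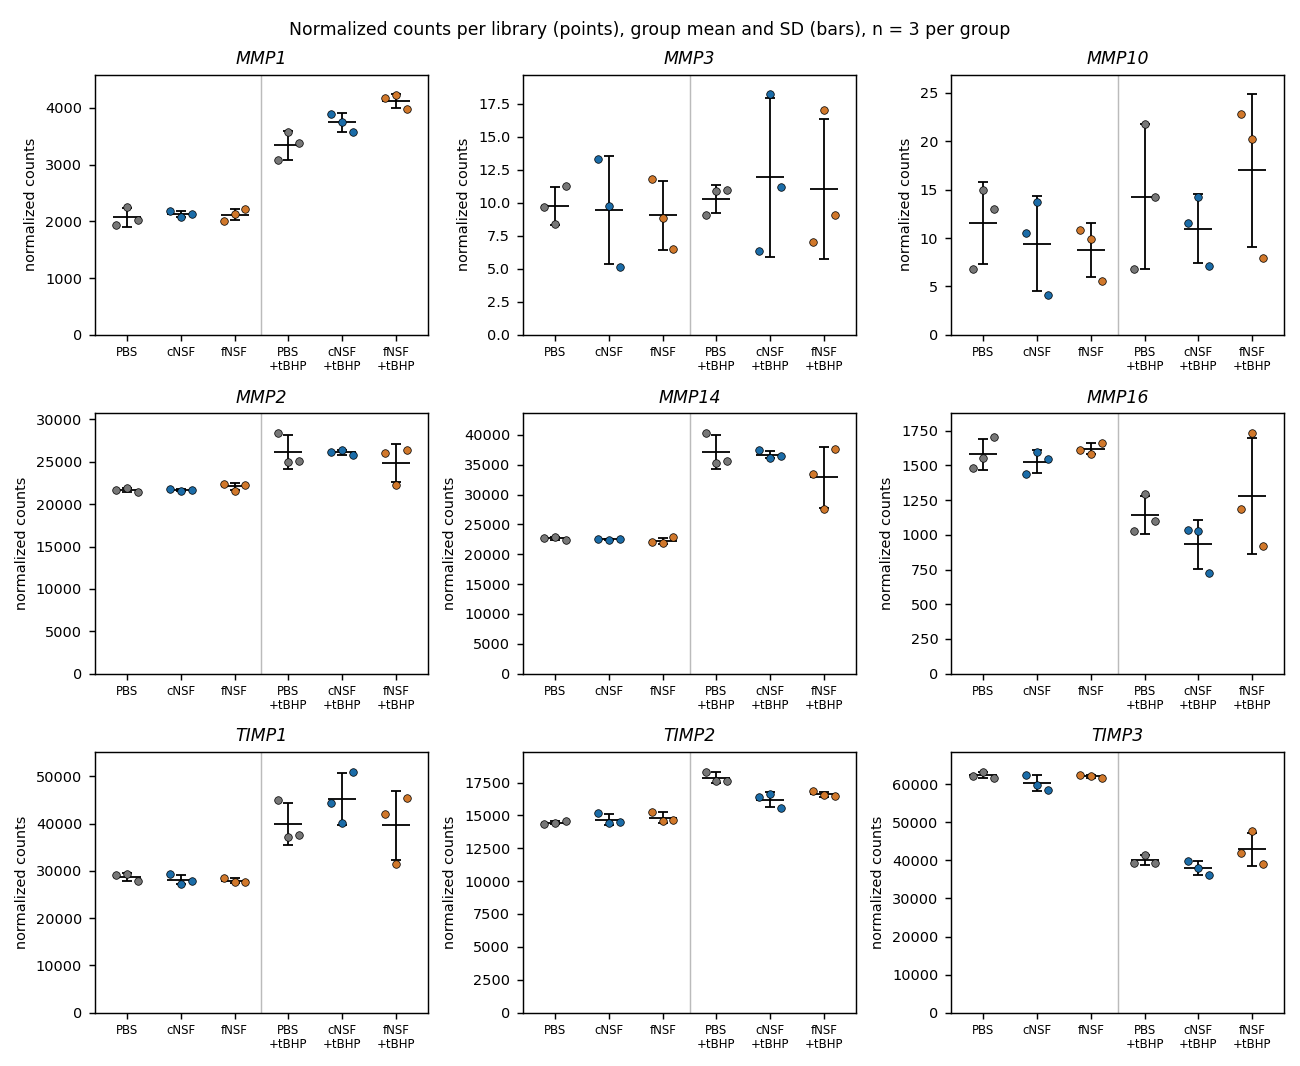
Normalized counts (y axis, linear, from 0) of the 9 genes in the 6 groups (x axis), with 1 point per library and bars for the mean and SD of 3 libraries; the grey line parts the groups without and with tBHP. MMP1, MMP14, TIMP1 and TIMP2 were higher and TIMP3 lower in every library after tBHP than in every library without it, while MMP3 and MMP10 overlapped throughout.

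After tBHP the collagenase MMP1, the gelatinase MMP2, the membrane-type enzyme MMP14 and the inhibitors TIMP1 and TIMP2 were higher in PBS cells, and MMP16 and TIMP3 were lower. MMP1 and MMP14 rose most, and TIMP3 fell most, of the genes called. In this comparison 7 of the 9 genes passed an adjusted p of 0.05 (limma), 5 higher and 2 lower, beside 51.1% of all tested genes (24.2% higher and 26.9% lower), so a call here is common in the table. The ranges of the 3 libraries did not overlap for the same number of the 9 genes, 7, beside 63.8% of all tested genes. In cNSF-HA cells 7 of 9 were called, 5 higher and 2 lower, beside 50.8% of all tested genes (24.0% higher and 26.8% lower), and 7 did not overlap, beside 63.7%. With fNSF-HA 5 of 9 were called, 4 higher and 1 lower, beside 41.9% of all tested genes (19.2% higher and 22.7% lower), and 5 did not overlap, beside 48.7%. Without replicate 2 of fNSF-HA with tBHP, 7 of the 9 genes were called with fNSF-HA, and calls over all genes went from 5733 to 6930. Without replicate 2 of fNSF-HA, 4 of the 9 were called and 4773 of all genes. The median log2 difference over the 9 genes was 0.27 with PBS, 0.28 with cNSF-HA and 0.21 with fNSF-HA, beside 0.0043, -0.00053 and -0.03 over all tested genes.

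**Figure D2:**
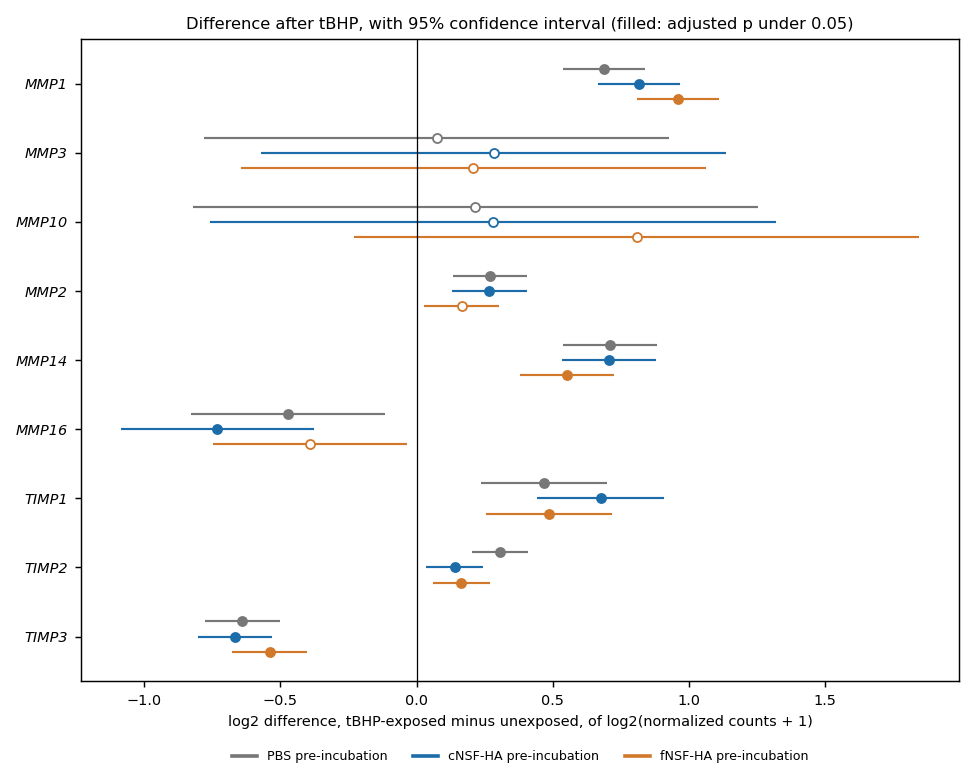
Log2 difference of each gene between cells with and without tBHP (x axis, of log2 of normalized counts + 1) for the 3 pre-incubations (colours), with 95% confidence intervals from limma; filled circles passed an adjusted p of 0.05. MMP1, MMP14 and TIMP1 lie to the right of 0 and TIMP3 to the left in all 3 pre-incubations, and the intervals of MMP3 and MMP10 span 0.

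MMP1 cuts the triple helix of fibrillar collagens. Its normalized counts were 1942, 2257 and 2018 in PBS, 2179, 2068 and 2126 in cNSF-HA and 2008, 2133 and 2214 in fNSF-HA. After tBHP they were 3072, 3569 and 3373 in PBS, 3896, 3755 and 3574 in cNSF-HA and 4164, 4217 and 3977 in fNSF-HA. Every library with tBHP was above every library without it, and the 3 exposed groups did not overlap each other: fNSF-HA was highest, cNSF-HA next and PBS lowest, whereas the 3 unexposed groups overlapped. The lowest cNSF-HA library with tBHP stood at 3574 and the highest PBS library with tBHP at 3569. For cNSF-HA against PBS, fNSF-HA against PBS and cNSF-HA against fNSF-HA after tBHP, 9.57%, 12.0% and 13.4% of all tested genes did not overlap. In limma MMP1 was not called in these 3 comparisons. Exposed minus unexposed, MMP1 differed by a log2 value of 0.69 with PBS (95% CI 0.54 to 0.84, 1.61-fold, adjusted p = 4.31e-07), 0.82 with cNSF-HA (0.67 to 0.97, adjusted p = 5.97e-08) and 0.96 with fNSF-HA (0.81 to 1.11, 1.95-fold, adjusted p = 7.55e-09). Over all 30 alternatives tried for MMP1 in PBS cells the difference stayed between 0.64 and 0.84.

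The stromelysins cut proteoglycans, laminin and other matrix proteins and can activate other MMP proenzymes. MMP3 was counted by 5 to 18 reads per library and MMP10 by 4 to 26, which makes the counting error large. Normalized counts of MMP3 were 9.66, 8.40 and 11.2 in PBS and 9.08, 10.9 and 10.9 in PBS with tBHP. They were 13.4, 9.77 and 5.17 in cNSF-HA, 6.32, 18.3 and 11.2 in cNSF-HA with tBHP, 11.8, 8.87 and 6.52 in fNSF-HA, and 7.02, 17.0 and 9.11 in fNSF-HA with tBHP. All 6 groups overlapped their neighbours in the order of means. The log2 difference with tBHP was 0.07 with PBS (95% CI -0.78 to 0.93, adjusted p = 0.895), 0.28 with cNSF-HA and 0.21 with fNSF-HA, and a change in either direction was not detectable at this depth.

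MMP10 had 6.76, 14.9 and 13.0 normalized counts in PBS, 10.5, 13.7 and 4.14 in cNSF-HA and 10.8, 9.85 and 5.59 in fNSF-HA. After tBHP it had 6.81, 21.8 and 14.2 in PBS, 11.6, 14.2 and 7.12 in cNSF-HA and 22.8, 20.2 and 7.97 in fNSF-HA. The groups again overlapped, and replicate 3 was the lowest library in 4 of 6 groups. For MMP10 the log2 difference was 0.22 with PBS (-0.82 to 1.25, adjusted p = 0.738), 0.28 with cNSF-HA (-0.76 to 1.32, adjusted p = 0.654) and 0.81 with fNSF-HA (-0.23 to 1.85, adjusted p = 0.204). All 3 intervals span 0 and are wide. MMP3 and MMP10 are similar in sequence, and whether reads were split between them was not tested.

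MMP2 digests denatured collagen and basement membrane collagen. It had 21626, 21880 and 21414 normalized counts in PBS, 21806, 21533 and 21722 in cNSF-HA and 22405, 21599 and 22286 in fNSF-HA. After tBHP it had 28430, 24938 and 25041 in PBS, 26161, 26355 and 25775 in cNSF-HA and 25990, 22208 and 26338 in fNSF-HA. The PBS and cNSF-HA libraries with tBHP lay above their unexposed libraries, and replicate 2 of fNSF-HA with tBHP lay inside the unexposed range. For MMP2 the log2 difference was 0.27 with PBS (0.13 to 0.41, 1.21-fold, adjusted p = 0.00227), 0.27 with cNSF-HA (0.13 to 0.40, adjusted p = 0.00249) and 0.17 with fNSF-HA (0.03 to 0.30, adjusted p = 0.0506). Without replicate 2 of fNSF-HA with tBHP the last value was 0.24 (adjusted p = 0.00182, 0.00182 to 0.762 over its 30 alternatives), and without replicate 3 it was 0.12 (adjusted p = 0.179). On all libraries this call was also made by edgeR (0.23, adjusted p = 0.0132) and DESeq2 (0.17, adjusted p = 0.0307), and with median rescaling, a pseudocount of 0.1 or a minimum mean of 50 (adjusted p from 0.0436 to 0.05). With the trend of log2 values on GC content and exon length removed from each library, the differences were 0.05 both with PBS (adjusted p = 0.328) and with cNSF-HA (adjusted p = 0.30), and quantile normalization gave 0.03 in PBS cells (adjusted p = 0.615), so the call for MMP2 depends on the scaling.

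MMP14 is anchored in the plasma membrane and cuts collagen, CD44 and the MMP2 proenzyme. Its normalized counts were 22745, 22885 and 22334 in PBS, 22573, 22396 and 22584 in cNSF-HA and 22007, 21924 and 22898 in fNSF-HA. After tBHP they were 40384, 35295 and 35708 in PBS, 37412, 36188 and 36559 in cNSF-HA and 33439, 27589 and 37680 in fNSF-HA. All 9 exposed libraries exceeded all 9 unexposed ones, with the lowest exposed value in replicate 2 of fNSF-HA. On the log2 scale MMP14 differed by 0.71 with PBS (0.54 to 0.88, 1.64-fold, adjusted p = 1.57e-06), 0.71 with cNSF-HA (0.53 to 0.88, adjusted p = 1.92e-06) and 0.55 with fNSF-HA (0.38 to 0.72, adjusted p = 3.39e-05). Without replicate 2 of fNSF-HA with tBHP the last value was 0.67, and without replicate 3 it was 0.45, both past the threshold. With the GC and length trend removed it was 0.46 with PBS, 0.44 with cNSF-HA and 0.49 with fNSF-HA, still past the threshold.

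MMP16, the other membrane-type enzyme, went the other way. It had 1483, 1556 and 1704 normalized counts in PBS, 1435, 1594 and 1550 in cNSF-HA and 1613, 1586 and 1665 in fNSF-HA. After tBHP it had 1029, 1297 and 1102 in PBS, 1036, 1029 and 727 in cNSF-HA and 1184, 1736 and 918 in fNSF-HA. The PBS and cNSF-HA groups did not overlap their unexposed groups, and in fNSF-HA replicate 2 with tBHP was the highest library of all 18. For MMP16 the log2 difference was -0.47 with PBS (-0.83 to -0.12, adjusted p = 0.0266), -0.73 with cNSF-HA (-1.09 to -0.38, adjusted p = 0.00163) and -0.39 with fNSF-HA (-0.75 to -0.04, adjusted p = 0.0724). Without replicate 2 of fNSF-HA with tBHP the last value was -0.64 (adjusted p = 0.000449, 0.000449 to 0.507 over its 30 alternatives), and without replicate 3 it was -0.18 (adjusted p = 0.365). With fNSF-HA the limma call was also gained with the replicate number as a block (adjusted p = 0.0469) or without cNSF-HA with tBHP replicate 3 (adjusted p = 0.0488). In PBS cells the call was lost without PBS replicate 2 (adjusted p = 0.0552), PBS replicate 3 (0.0911), PBS with tBHP replicate 1 (0.0998) or PBS with tBHP replicate 3 (0.0699). With the GC and length trend removed it was 0.04 with PBS (adjusted p = 0.651) and -0.18 with cNSF-HA (adjusted p = 0.0494), and MMP16 has the lowest GC content of the 9 genes, 36.4%, and the longest exons, 12.1 kb.

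TIMP1 is a secreted inhibitor that fibroblasts raise in many stress and wound responses. It had 29111, 29309 and 27770 normalized counts in PBS, 29215, 27242 and 27912 in cNSF-HA and 28472, 27691 and 27630 in fNSF-HA. After tBHP it had 44933, 37203 and 37479 in PBS, 44250, 40167 and 50999 in cNSF-HA and 42088, 31367 and 45375 in fNSF-HA. No exposed library fell into the unexposed range. TIMP1 differed on the log2 scale by 0.47 with PBS (0.24 to 0.70, 1.38-fold, adjusted p = 0.00186), 0.68 with cNSF-HA (0.44 to 0.91, adjusted p = 7.01e-05) and 0.49 with fNSF-HA (0.25 to 0.72, adjusted p = 0.00174). With fNSF-HA it was 0.65 without replicate 2 of the exposed group and 0.38 without replicate 3, again past the threshold. With the GC and length trend removed it was 0.19 (adjusted p = 0.00113), 0.30 and 0.35, and quantile normalization gave 0.21 in PBS cells (adjusted p = 0.0646).

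TIMP2 had 14364, 14390 and 14586 normalized counts in PBS, 15167, 14400 and 14468 in cNSF-HA and 15279, 14583 and 14642 in fNSF-HA. After tBHP it had 18336, 17610 and 17653 in PBS, 16375, 16649 and 15530 in cNSF-HA and 16839, 16563 and 16461 in fNSF-HA. All exposed libraries were above all unexposed ones, with PBS above both HA groups and those 2 groups overlapping. For TIMP2 the log2 difference was 0.31 with PBS (0.20 to 0.41, 1.24-fold, adjusted p = 6.16e-05), 0.14 with cNSF-HA (0.04 to 0.25, adjusted p = 0.0249) and 0.16 with fNSF-HA (0.06 to 0.27, adjusted p = 0.0127). With the GC and length trend removed the values were 0.12 (adjusted p = 0.0201), -0.0039 (adjusted p = 0.95) and 0.08 (adjusted p = 0.131). In cNSF-HA cells the call was also lost without cNSF-HA replicate 2 (adjusted p = 0.0886) or 3 (0.0808), or cNSF-HA with tBHP replicate 1 (0.0585) or 2 (0.0889), and in fNSF-HA cells without fNSF-HA replicate 2 (0.0537). Fitting only the groups compared (adjusted p = 0.0646 with cNSF-HA and 0.0557 with fNSF-HA), no filter (0.145 and 0.0956) and quantile normalization (0.903 and 0.153) lost both calls too.

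TIMP3 was the most counted of the 9 genes before tBHP. It had 62104, 63395 and 61782 normalized counts in PBS, 62589, 59846 and 58603 in cNSF-HA and 62510, 62285 and 61714 in fNSF-HA. After tBHP it had 39344, 41570 and 39353 in PBS, 39937, 38059 and 36157 in cNSF-HA and 42058, 47678 and 39047 in fNSF-HA. All 9 exposed libraries were below all 9 unexposed ones. On the log2 scale TIMP3 differed by -0.64 with PBS (-0.78 to -0.50, 0.642 of the unexposed level, adjusted p = 3.56e-07), -0.67 with cNSF-HA (-0.80 to -0.53, adjusted p = 2.41e-07) and -0.54 with fNSF-HA (-0.68 to -0.40, adjusted p = 3.23e-06). The fNSF-HA value was -0.62 without exposed replicate 2 and -0.47 without exposed replicate 3, and both passed. The GC and length correction gave -0.69, -0.69 and -0.59 for the 3 pre-incubations.

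The opposite moves of TIMP1 and TIMP3 changed the makeup of the inhibitor mRNA. Per kilobase of exon, TIMP3 made up 38.6%, 39.0% and 39.4% of the summed TIMP1, TIMP2 and TIMP3 counts in the 3 PBS libraries and 20.9%, 24.9% and 23.7% in PBS with tBHP. With cNSF-HA the share went from 38.6% ± 0.508 (SD, n = 3) to 20.6% ± 2.26, and with fNSF-HA from 39.4% ± 0.326 to 24.9% ± 5.23, where the exposed libraries stood at 23.2%, 30.8% and 20.8% with replicate 2 highest. TIMP1 made up 53.6% ± 0.587 in PBS cells and 68.4% ± 2.46 in PBS cells with tBHP, and TIMP2 7.38% ± 0.202 and 8.42% ± 0.413. The exposed and unexposed groups did not overlap for the shares of TIMP1 and TIMP3 in any of the 3 pre-incubations.

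Summed over the 6 MMPs and divided by the sum over the 3 TIMPs, the counts per kb gave 0.303, 0.307 and 0.309 in PBS and 0.402, 0.410 and 0.414 in PBS with tBHP. With cNSF-HA the ratio went from 0.314 ± 0.00861 to 0.385 ± 0.0326, and with fNSF-HA from 0.312 ± 0.00845 to 0.385 ± 0.00448, in neither case with overlap. MMP14 per TIMP3 went from 0.374 ± 0.00298 to 0.957 ± 0.0932 with PBS, from 0.385 ± 0.0128 to 0.996 ± 0.0407 with cNSF-HA and from 0.370 ± 0.0113 to 0.804 ± 0.20 with fNSF-HA, where the exposed libraries stood at 0.820, 0.597 and 0.995 with replicate 2 lowest. Within the MMPs, MMP14 made up 47.6% ± 0.421 of the counts per kb in PBS cells and 53.9% ± 0.957 with tBHP, and MMP2 41.2% ± 0.257 and 34.3% ± 0.582. An exact permutation test of 3 against 3 libraries cannot go below p = 0.1 (two-sided), the value found in 40 of 108 such tests (12 quantities in 9 comparisons), of which 10 were in each of the 3 tBHP comparisons.

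**Figure D3:**
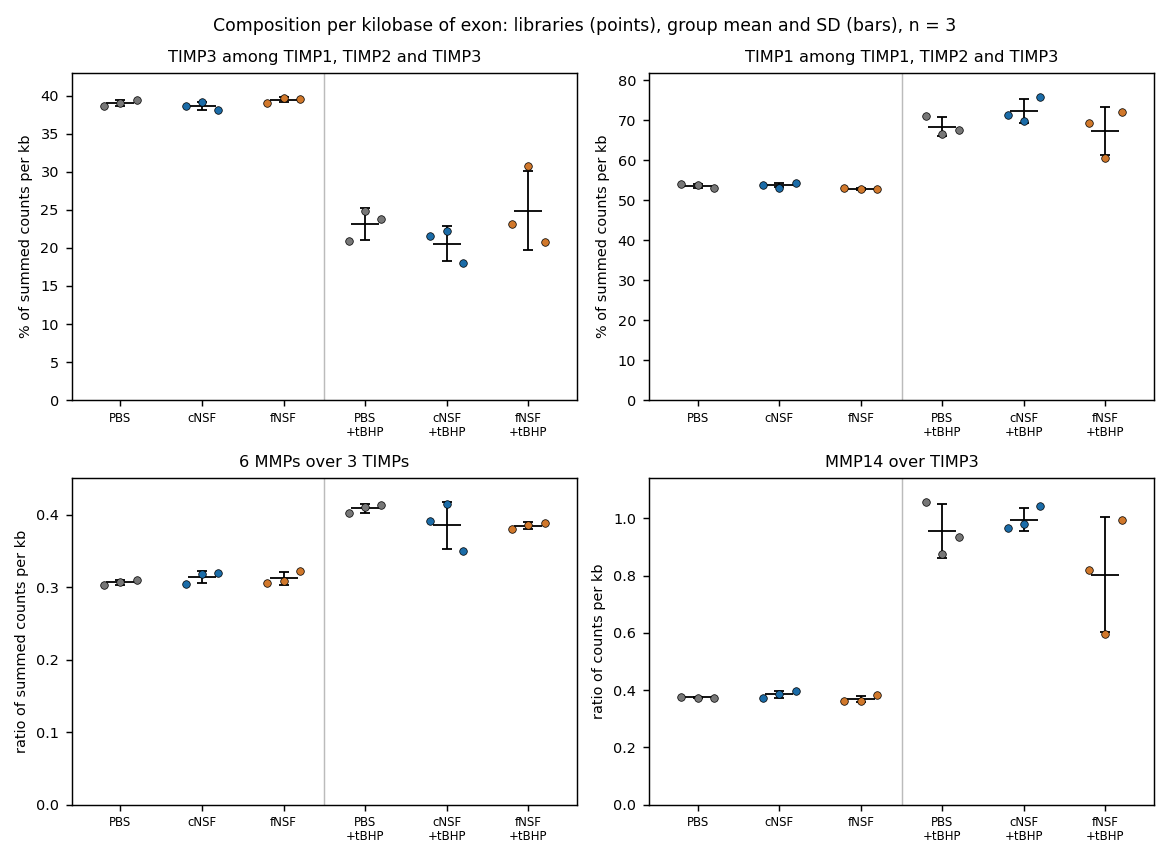
Makeup of the MMP and TIMP mRNA per kilobase of exon in the 6 groups (x axis): the percentages of TIMP3 and TIMP1 among the 3 TIMPs, the ratio of the 6 MMPs to the 3 TIMPs, and the ratio of MMP14 to TIMP3 (y axes, from 0). Points are libraries and bars the mean and SD of 3; the TIMP3 share lay at 38.1% to 39.7% in the 9 libraries without tBHP and at 30.8% or less in the 9 with it.

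The HA pre-incubations were compared with PBS and with each other to ask whether HA or its polymer length moved these genes. Without tBHP, 0 of the 9 genes passed an adjusted p of 0.05 (limma) for cNSF-HA against PBS, fNSF-HA against PBS or cNSF-HA against fNSF-HA, beside 0.0% of all tested genes in each of the 3. At an unadjusted p under 0.05 the count was 0 of the 9 in all 3 comparisons and 126, 109 and 206 of all tested genes, and edgeR and DESeq2 on recovered reads also called 0 of the 9. In each of these comparisons 0 of the 9 genes had ranges that did not overlap, beside 15.2%, 14.0% and 25.0% of all genes. For the 7 genes above the floor the log2 differences ran from -0.09 to 0.04, and the widest interval, of MMP16 for cNSF-HA against fNSF-HA, was -0.44 to 0.27. For TIMP2, the narrowest, differences of more than 0.15 on the log2 scale in either direction lay outside the intervals of all 3 comparisons. MMP3 and MMP10 had intervals as wide as -1.38 to 0.69. Each gene had 1 spread shared by all 18 libraries, and those after tBHP varied more, so intervals without tBHP can be too wide. For MMP16 the median SD on the log2 scale was 0.0784 without tBHP and 0.292 after it. Fitting only the groups compared called more of all genes in the comparisons with fNSF-HA, with counts given in the closing section. The adjusted p of the 9 genes was 0.204 or more in every alternative.

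After tBHP, 0 of the 9 genes passed the threshold in the same 3 comparisons, beside 0.0% of all tested genes for cNSF-HA against PBS, 0.139% (19 genes, 0.117% higher and 0.0219% lower) for fNSF-HA against PBS and 0.0% for cNSF-HA against fNSF-HA. At an unadjusted p under 0.05 the counts were 2, 2 and 2 of the 9 genes and 1183, 3102 and 4412 of all tested genes. edgeR on recovered reads called 0 of the 9 in each, and DESeq2 called 0, 1 and 0, the 1 being MMP1, beside 5, 442 and 923 of all genes in DESeq2. The ranges did not overlap for 2, 2 and 1 of the 9 genes, beside 9.57%, 12.0% and 13.4% of all genes.

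MMP1 was the gene with the largest exposed difference between fNSF-HA and PBS among those well above the floor. fNSF-HA with tBHP stood 0.31 above PBS with tBHP on the log2 scale (95% CI 0.16 to 0.46, 1.24-fold, adjusted p = 0.0687), with all 3 libraries above all 3. Its adjusted p under DESeq2 was 0.00472 and under edgeR 0.0674, and over all 30 alternatives it ran from 0.00472 to 0.656. The call was gained without PBS with tBHP replicate 2 (0.36, adjusted p = 0.0409), cNSF-HA with tBHP replicate 3 (0.31, adjusted p = 0.0431) or fNSF-HA with tBHP replicate 3 (0.33, adjusted p = 0.00673, with 4024 of all genes called), and with the GC and length trend removed the difference was 0.16 (adjusted p = 0.218). cNSF-HA with tBHP stood 0.17 above PBS (0.02 to 0.32, adjusted p = 0.562) and 0.14 below fNSF-HA (-0.29 to 0.01, adjusted p = 0.179).

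TIMP2 was lower after tBHP in both HA groups than in PBS, by -0.14 for cNSF-HA (-0.25 to -0.04, adjusted p = 0.526) and -0.10 for fNSF-HA (-0.21 to 0.00046, adjusted p = 0.221), and in both the libraries did not overlap those of PBS. MMP14 in fNSF-HA with tBHP stood -0.18 from PBS (-0.36 to -0.01, adjusted p = 0.202), and with the low replicate 2 left out this was -0.06 (adjusted p = 0.837). With replicate 3 left out instead, it was -0.29 (adjusted p = 0.0103, 0.0103 to 0.873 over its 30 alternatives), with 4024 calls over all genes. With the GC and length trend removed it turned to 0.02 (adjusted p = 0.873).

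Between the HA preparations after tBHP, the 4 genes with the largest differences apart from MMP10 were MMP16 at -0.43 for cNSF-HA minus fNSF-HA (-0.78 to -0.07, adjusted p = 0.109), TIMP1 at 0.20 (-0.03 to 0.43, adjusted p = 0.209), MMP14 at 0.17 (-0.0032 to 0.34, adjusted p = 0.16) and TIMP3 at -0.17 (-0.31 to -0.03, adjusted p = 0.104). These values moved with replicates 2 and 3 of fNSF-HA with tBHP, and also with the GC and length correction. Without replicate 3, all 4 passed the threshold, at -0.64 (adjusted p = 0.00376), 0.31 (adjusted p = 0.0328), 0.27 (adjusted p = 0.00843) and -0.24 (adjusted p = 0.00951), while calls over all genes went from 0 to 5586. Without replicate 2, the values were -0.18, 0.04, 0.05 and -0.09, with adjusted p of 0.606 or more, and with the GC and length trend removed they were -0.09, -0.08, -0.08 and -0.14, so that TIMP1 and MMP14 turned sign. Over their 30 alternatives the adjusted p ran from 0.00376 to 0.627 for MMP16, 0.0328 to 0.881 for TIMP1, 0.00843 to 0.795 for MMP14 and 0.00951 to 0.606 for TIMP3.

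Whether HA changed the size of the tBHP response was tested as the difference of 2 responses. For cNSF-HA minus PBS, fNSF-HA minus PBS and cNSF-HA minus fNSF-HA, 0 of the 9 genes passed in limma, beside 0.0% of all tested genes in each. At an unadjusted p under 0.05 the counts were 1, 1 and 0 of the 9 and 555, 942 and 533 of all genes, and edgeR and DESeq2 called 0 of the 9. The MMP1 response in fNSF-HA cells was 0.27 larger than in PBS cells (0.06 to 0.48, adjusted p = 0.667), and the TIMP2 response in cNSF-HA cells differed from that in PBS cells by -0.17 (-0.31 to -0.02, adjusted p = 0.999). These 3 comparisons share their samples with the single responses and with each other.

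**Figure D4:**
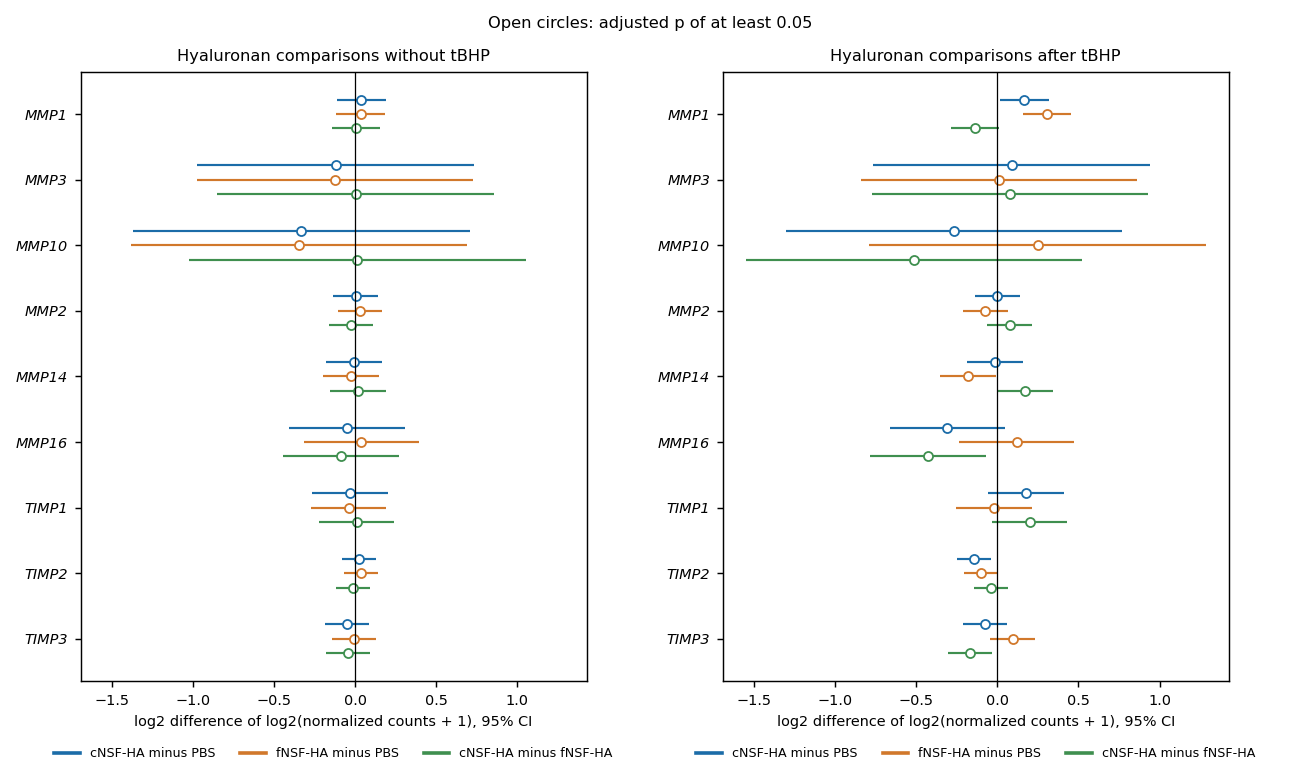
Log2 differences between the pre-incubations (x axis, of log2 of normalized counts + 1) for the 9 genes without tBHP (left) and after tBHP (right), with 95% confidence intervals from limma; colours mark the 3 comparisons. All circles are open because 0 of the 9 genes passed an adjusted p of 0.05, and the MMP1 interval of fNSF-HA minus PBS after tBHP, 0.16 to 0.46, lies wholly above 0.

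The other MMP genes and TIMP4 were mostly near the floor. Of 18 such genes, 6 had a mean of at least 10 normalized counts, and MMP12, MMP20 and MMP27 were at 0 in every library, while the gelatinase MMP9 averaged 0.934. MMP19 was the most counted, at 508 on average, and was not called. After tBHP in PBS cells 2 of the 6 rose and 0 fell, beside 24.2% of all tested genes higher and 26.9% lower, with a median log2 difference of 0.29 beside 0.0043 over all genes. These 2, named after their values were seen, were the membrane-type MMP17, from 52.3 to 103 normalized counts (0.96, adjusted p = 0.0137), and TIMP4, from 10.7 to 25.4 (1.13, adjusted p = 0.0209, up to 0.0966 over its alternatives). TIMP4 was near the minimum mean, which counts the exposed libraries where it was higher, so its call carries little weight. With a minimum mean of 50, 2 genes were tested and 1 rose, and with no filter 1 of the 6 rose.

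Of 12 partners that hold, activate or block MMPs, all measured, 4 rose and 3 fell after tBHP in PBS cells, with a median of 0.19 beside 0.0043 over all genes. With 51.1% of all tested genes called here, 7 of 12 is near the background. Those that fell included THBS1 (thrombospondin-1, a matrix protein that helps clear MMP2), from 157066 to 85372 normalized counts (-0.88, adjusted p = 1.38e-06), and RECK (a membrane-anchored inhibitor of MMPs), from 1943 to 1170 (-0.73, adjusted p = 2.12e-06). Like RECK, TIMP3 fell, while TIMP1 and TIMP2 rose. The 4 that rose were PLAU at 0.42, PLAT at 0.38, PLAUR at 0.25 and A2M at 0.71, the plasminogen activators, the receptor of the first and a broad protease inhibitor. The call for PLAUR was lost under some alternatives, over which its difference ran from 0.05 to 0.32 and its adjusted p up to 0.382.

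Of 18 ADAM and ADAMTS genes, the related metalloproteinases, 3 rose and 7 fell after tBHP in PBS cells, with a median of -0.0016 beside 0.0043 over all genes. The 10 of 18 called are near the 51.1% of all tested genes. ADAMTS15 went from 207 to 61.2 normalized counts (-1.75, adjusted p = 6.04e-09), the aggrecanase ADAMTS4 from 114 to 329 (1.52, adjusted p = 2.60e-08) and the aggrecanase ADAMTS5 from 261 to 140 (-0.89, adjusted p = 4.10e-05). ADAM17, an enzyme that TIMP3 inhibits, went from 644 to 952 (0.56, adjusted p = 4.15e-05).

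Of 14 genes known to regulate MMP transcription, 11 were measured, and 9 rose and 1 fell, beside 24.2% of all tested genes higher and 26.9% lower, with a median of 0.77 beside 0.0043 over all genes. They included JUND, from 411 to 1369 (1.73, adjusted p = 1.09e-07), and JUNB, from 956 to 1680 (0.81, adjusted p = 0.0147, up to 0.0588 over its alternatives), which are subunits of AP-1, and the cytokine IL6, from 173 to 392 (1.18, adjusted p = 7.99e-09). ETS1, a transcription factor, fell by 0.36 (adjusted p = 0.00183), and TNF was at 0 in every library. Over the 12 other settings that kept all libraries, 8 to 9 of the list rose and 1 fell.

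With cNSF-HA the 4 lists of other MMPs, partners, ADAM and ADAMTS genes, and regulators gave 2, 4, 2 and 9 genes that rose after tBHP and 0, 4, 9 and 1 that fell. With fNSF-HA these numbers were 1, 3, 2 and 7 that rose and 0, 4, 7 and 1 that fell. Of all tested genes 24.0% were higher and 26.8% lower with cNSF-HA, and 19.2% higher and 22.7% lower with fNSF-HA. The differences between these responses gave 0 calls among the 47 listed genes in limma, edgeR and DESeq2, with 2, 5 and 2 at an unadjusted p under 0.05, beside 555, 942 and 533 of all tested genes. Between pre-incubations without tBHP, limma, edgeR and DESeq2 each called 0 of the 47 measured genes of the 4 lists, with 1, 1 and 0 at an unadjusted p under 0.05 in the 3 comparisons, beside 126, 109 and 206 of all 13686 tested genes. After tBHP, 0 of the 47 measured genes of the 4 lists were called by limma for cNSF-HA against PBS, fNSF-HA against PBS or cNSF-HA against fNSF-HA, with 0 in edgeR and 0, 2 and 2 in DESeq2, which called 5, 442 and 923 of all genes. At an unadjusted p under 0.05 there were 2, 11 and 14 of the 47, beside 1183, 3102 and 4412 of all 13686 tested genes.

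Genes whose log2 values ran most like each member were ranked by Pearson's r over the 18 libraries among 10313 genes, as a description, since the libraries fall into an exposed and an unexposed set and a shared tBHP response is enough for a high r. MMP14 ran most like TNKS1BP1 (r = 0.997), ULK1 (0.996) and NR4A1 (0.994), and TIMP3 most like ANTXR2 (0.995), EML4 (0.994) and NT5E (0.994). For MMP1 these were HSPA9 (0.984), HBP1 (0.982) and TARS (0.981), for TIMP1 GAPDH (0.990), CAPNS1 (0.989) and FXYD5 (0.987), and for MMP16 NUFIP2 (0.989), ATP13A3 (0.988) and ITGAV (0.987). MMP2 ran most like PTK7 (0.987) and PLOD1 (0.986) and TIMP2 most like CTDSP2 (0.971). The best matches of MMP3 (ORC6, 0.675) and MMP10 (LRRC37B, 0.765) were weak.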

How the data were processed

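RNA of 18 IMR90 libraries (3 per group, 6 groups, groups and replicate numbers from the labels) was extracted with Trizol, and polyA libraries were made with the TruSeq RNA V2 kit and read as single ends of 100 nt. Per the submitters' processing notes the authors used Trimmomatic 0.32, STAR 2.5.2b, featureCounts of Subread 1.5.0-p3, DESeq2 and GRCh38.p7. The deposited values are a signal: gene counts that the authors divided by DESeq2 size factors ("normalized counts"). Dividing by the worth of 1 read gave whole reads for 100% of values (tolerance 0.01 read), 20261103 to 26287660 reads per library. 3 columns of the authors' own comparison (p-value, q-value and a ranking) were not used.

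Genes with a mean of at least 10 (13686 of 56269) were fitted as log2(value + 1) with limma 3.58.1 (R 4.3.3; lmFit, eBayes with trend), all 18 libraries, 1 coefficient per group, no covariate, two-sided, Benjamini-Hochberg over all genes at 0.05. Differences are on this scale, which understates changes of low genes. Levels per kb use exon lengths of GENCODE release 29, which may differ from the isoforms expressed. For the GC and length correction, a trend (natural splines, df 5) was taken out of each library (12503 genes, 91.4% of those tested). edgeR 4.0.16 and DESeq2 1.42.0 were run on the recovered reads. Counts of 13686 genes were simulated for the tBHP response in PBS cells, with 200 genes changed by a log2 of 1. Of these 200, 100% were called, and 6.10% of all calls were false. In the real comparison the described genes differed by at most 0.71 in either direction, and 6995 of all tested genes were called. The 100% therefore does not apply to the described genes, and how often changes of their size would be called was not tested.

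The 9 genes and the lists of other genes were chosen with earlier results of these data known. By rule, all 9 genes are described, and of 4 hand-written lists the 3 genes with the largest called change in PBS cells are named, if their mean was at least 100 and the groups did not overlap. Other listed genes given by name were picked after their values were seen. The result of 1 gene that this rule names is not reported here. Alternatives were 2 other pseudocounts, no filter, a minimum mean of 50, median rescaling, quantile normalization, the replicate number as a block, only the groups compared, the GC and length correction, edgeR, DESeq2, and leaving out each library.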

Additional observations from a re-analysis of the deposited data

How the results depend on the processing

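Over 3216 recomputed values of the 9 genes, 3167 kept their direction and their side of the threshold where the value was called, 22 lost a call, 21 gained 1 and 6 turned sign. A further 146 values that were never called changed sign. The values that turned sign were those of the tBHP response of MMP16 in PBS cells (0.0421 with the GC and length trend removed, with and without the replicate block), MMP2 in cNSF-HA cells (-0.0243 with quantile normalization) and TIMP2 in cNSF-HA cells (-0.0079 with quantile normalization, and -0.0039 with the GC and length trend removed, with and without the block); the cause was not tested. Leaving out 1 library gave 6 to 7 called members of 9 for the tBHP response with PBS, 6 to 7 with cNSF-HA and 4 to 7 with fNSF-HA. It gave 0 to 2 for fNSF-HA against PBS after tBHP, where DESeq2 called 1, and 0 to 4 for cNSF-HA against fNSF-HA after tBHP. In the other comparisons it gave 0.

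Counts over all genes that moved by more than 1.5 times were these. For fNSF-HA against PBS after tBHP (19) they were 3 with no filter, 30 with a minimum mean of 50, 61 with the replicate block, 0 with only the groups compared, 42 with the GC and length trend removed, 70 with that and the block, 36 in edgeR, 442 in DESeq2 and 0 to 4024 without 1 library. For cNSF-HA against fNSF-HA after tBHP (0) they were 923 in DESeq2, 1 with a pseudocount of 0.1, 1 with the GC and length trend removed (with and without the block) and 0 to 5586 without 1 library. For cNSF-HA against PBS after tBHP (0) they were 5 with the GC and length trend removed (with and without the block), 5 in DESeq2 and 0 to 1 without 1 library. Without tBHP, fNSF-HA against PBS (0) gave 5 with no filter, 21 with only the groups compared, 3 in DESeq2 and 0 to 2 without 1 library, cNSF-HA against PBS (0) gave 4 with no filter, and cNSF-HA against fNSF-HA (0) gave 980 with only the groups compared. The difference of responses between fNSF-HA and PBS (0) gave 6 in DESeq2 and 0 to 9 without 1 library.

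Whether the replicate numbers pair the samples was not settled. Of 45 pairs of same-numbered libraries, 7 had deviations that correlated above 0.1 (-0.119 to 0.333 in all). The labels do not name the culture of each replicate. With the replicate block, 7 members were called for the tBHP response in fNSF-HA cells in place of 5, with MMP2 (adjusted p = 0.0422) and MMP16 (adjusted p = 0.0469) added, and no other call among the 9 genes changed. Depth limits MMP3 and MMP10, counted by at most 26 reads per library.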
